A study of Mus musculus with 12 samples.

Results

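The aryl hydrocarbon receptor (AHR) and 6 genes around it were followed in all 12 libraries of a mouse study of carbon tetrachloride (CCl4), a compound that hepatocytes convert into a toxic radical. The 7 genes were selected by symbol, with earlier liver results of these data known, and make up 7 of the 57180 gene IDs in the deposited expression table. They are the receptor Ahr (ENSMUSG00000019256, chromosome 12), its partner Arnt (ENSMUSG00000015522, chromosome 3), the repressors Ahrr (ENSMUSG00000021575, chromosome 13) and Tiparp (ENSMUSG00000034640, chromosome 3), and the cytochrome P450 targets Cyp1a1 (ENSMUSG00000032315, chromosome 9), Cyp1a2 (ENSMUSG00000032310, chromosome 9) and Cyp1b1 (ENSMUSG00000024087, chromosome 17). All 7 were matched to a row. There were 4 groups of 3 libraries: liver of C57 mice given CCl4, liver of C57 mice given vehicle, dorsal skin CX3CR1+ cells of Cx3cr1-creER:Ai9 mice given CCl4, and the same kind of skin cells from Cx3cr1-creER:Ai9 mice given vehicle. The sample titles name RNA-seq for liver, taken here as bulk RNA, and smart-seq for the skin cells. Smart-seq amplifies full-length cDNA from little RNA. The library protocol in the labels is the same for liver and skin and does not describe smart-seq. In the skin mice a Cre recombinase that needs tamoxifen is driven from the Cx3cr1 gene, and Ai9 is a red fluorescent reporter that Cre switches on. The design text names hepatocytes where the sample labels name liver, and it counts 3 biological replicates in each group. The sources used here do not give dose, time, sex, age or how the skin cells were sorted.

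The AHR is a cytoplasmic transcription factor of the bHLH-PAS family, held by HSP90 and co-chaperones until a ligand binds. Dioxins, other aromatic pollutants and products of tryptophan breakdown, such as kynurenine, are ligands. The loaded receptor enters the nucleus, pairs with ARNT and binds DNA at sites with the core GCGTG. The Cyp1 genes are its best known targets, and their enzymes oxidise aromatic compounds. Ahrr and Tiparp are targets too and restrain the receptor: AHRR competes for ARNT, and TIPARP adds ADP-ribose to the AHR. In liver, Cyp1a2 is made constitutively by hepatocytes, most of all around the central vein, whereas Cyp1a1 is low until the receptor is activated.

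The promoters of 3 of these genes are shown because the results turn on how unlike their transcripts were: Cyp1a1 and Cyp1a2 parted in liver, and Tiparp led in skin. Each is the 250 bases upstream of the transcription start in RefSeq (GRCm38.p6), 5′ to 3′ on the gene's strand, with capitals for the core GCGTG, for its reverse complement CACGC, and for the TATA box TATAAA. Cyp1a1 lies at chr9:57697363-57697612 on the plus strand, Cyp1a2 at chr9:57683656-57683905 on the minus strand and Tiparp at chr3:65528197-65528446 on the plus strand.
Cyp1a1: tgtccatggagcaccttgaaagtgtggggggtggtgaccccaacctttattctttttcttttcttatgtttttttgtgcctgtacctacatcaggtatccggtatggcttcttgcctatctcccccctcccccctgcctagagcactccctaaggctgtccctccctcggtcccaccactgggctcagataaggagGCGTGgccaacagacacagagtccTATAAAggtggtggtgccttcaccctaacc
Cyp1a2: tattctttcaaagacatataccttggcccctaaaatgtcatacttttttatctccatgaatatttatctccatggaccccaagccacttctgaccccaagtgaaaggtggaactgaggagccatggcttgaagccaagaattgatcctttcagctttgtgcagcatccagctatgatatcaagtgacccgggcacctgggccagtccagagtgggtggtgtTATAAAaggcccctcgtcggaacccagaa
Tiparp: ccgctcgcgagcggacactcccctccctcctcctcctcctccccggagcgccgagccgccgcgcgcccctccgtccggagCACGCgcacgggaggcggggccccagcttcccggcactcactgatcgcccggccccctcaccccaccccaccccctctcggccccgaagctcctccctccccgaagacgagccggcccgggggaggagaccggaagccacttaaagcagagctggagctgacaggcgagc
The Cyp1a1 window holds GCGTG 54 to 50 bases before the start and TATAAA 30 to 25 bases before it. Cyp1a2, its neighbour on the opposite strand with 0 annotated genes wholly between them, has TATAAA 29 to 24 bases before its start and no GCGTG in this window. Tiparp has the core once, on the opposite strand, 170 to 166 bases before its start, and no TATAAA. Among all 6 of the 7 genes with an entry (Ahr is the other), 5 windows held GCGTG on either strand: once in Cyp1a1, Tiparp, Arnt and Cyp1b1, and 3 times in Ahrr. The same core was found in 28.2% of all 32851 RefSeq windows of this length, and TATAAA in 12.4%, both counted on either strand. These matches are letters in a window, not measured binding, and the enhancer through which Cyp1a1 is best known to respond lies further upstream.

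Values are TPM, a relative transcript abundance that adds up to the same total in every library. They correct for transcript length and hold no read depth, so depth is unknown and a value of 0 is described as listed at 0. Differences are on the log2(TPM + 1) scale, which understates changes of low genes, with standard errors (SE) from limma. Mitochondrial genes and 16 near copies of them took 68.1 to 82.1% of all TPM in the CCl4 liver libraries and 25.7 to 28.4% in the vehicle liver libraries, which lowers the TPM of every other gene there. The median change over all 10385 genes tested in liver was -0.59, against -0.11 after median-ratio scaling and 0.90 after rescaling without those genes. Hepatocyte markers were present in every liver library, at 13510 to 31920 TPM summed over 8 genes with CCl4 and 64900 to 73090 TPM with vehicle. In skin, Cx3cr1 itself was at only 5.28, 0 and 0.28 TPM in the CCl4 libraries and 3.91, 0.27 and 0.91 TPM in the vehicle libraries. CCl4 skin library 3 stood apart: 8 macrophage and monocyte markers summed to 95.4 TPM there, with Mrc1 and Ccr2 listed at 0, against 1391 and 2103 TPM in the other CCl4 skin libraries and 1376 to 6996 TPM in the vehicle ones. Its 8 Langerhans and dendritic markers summed to 181.7 TPM, most of it Epcam at 113.3 TPM. They summed to 13080 to 47390 TPM in the other 5 skin libraries, most of it Cd74 and H2-Ab1. The skin differences of the members are therefore given with and without CCl4 skin library 3.

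**Figure D1:**
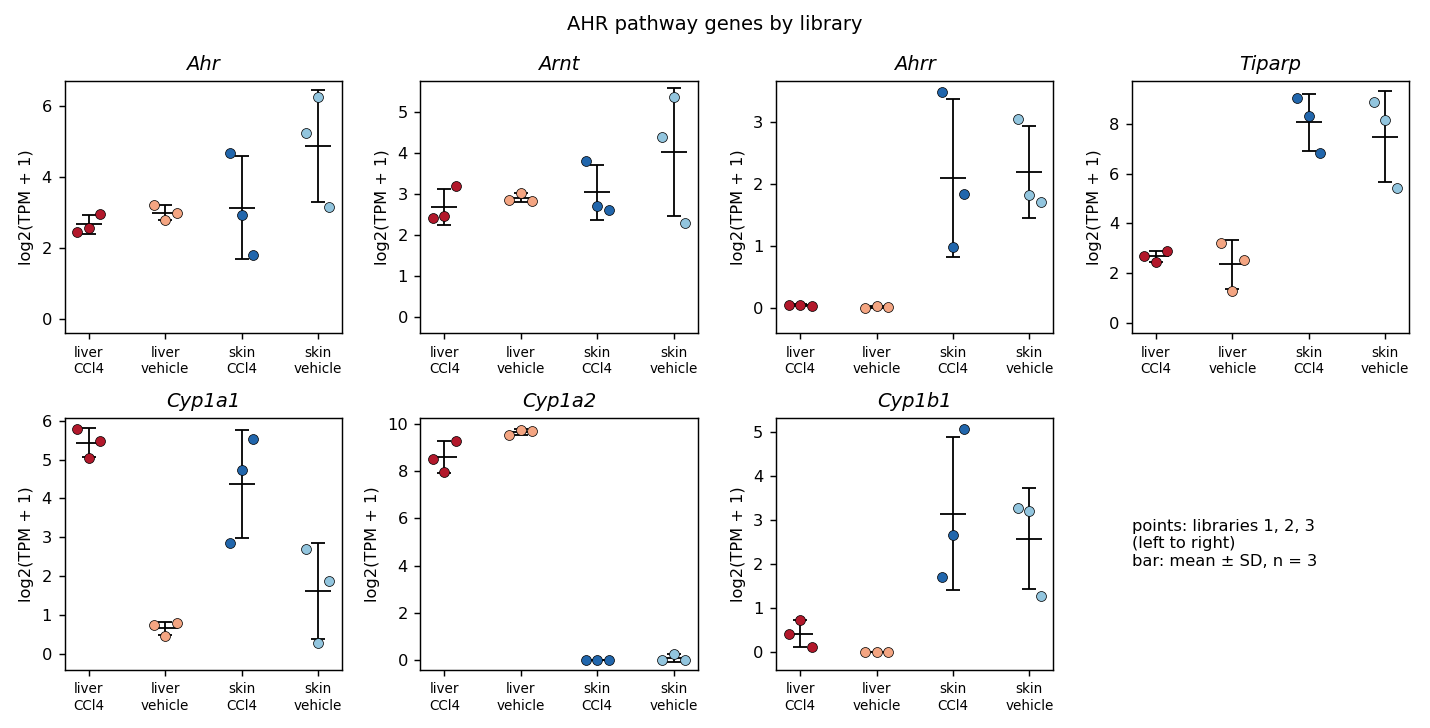
Expression of the 7 genes on the log2(TPM + 1) scale (vertical axes, each with its own range) in liver and skin cells of mice given CCl4 or vehicle; points are libraries 1 to 3 from left to right, bars the mean ± SD (n = 3). Cyp1a1 sat at 32.0 to 53.8 TPM in CCl4 livers and 0.39 to 0.73 TPM in vehicle livers, and Cyp1a2 was at 245 TPM or more in every liver library and at 0.21 TPM or less in every skin library.

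In liver, Cyp1a1 was the member that differed most between treatments: it was at 32.0 TPM or more in all CCl4 livers and below 1 TPM in all vehicle livers. Its neighbour Cyp1a2 did not share that pattern. The receptor, its partner and Tiparp overlapped between the groups in the deposited TPM, and Ahrr stayed at or near 0. Since the genes were gathered with liver results known, their liver values are a description and were not tested. Bulk RNA cannot tell fewer cells of a type from less RNA per cell.

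Cyp1a1, which encodes the inducible aryl hydrocarbon hydroxylase, had 53.8, 32.0 and 43.3 TPM in CCl4 livers, against 0.67, 0.39 and 0.73 TPM in vehicle livers. The lowest CCl4 library was far above the highest vehicle library. The log2 difference was 4.76 ± 0.25 (SE, n = 3 per group), or 5.35 above the median of all genes. It was 5.15 under median-ratio scaling and 6.71 without mitochondrial genes and their copies, and it ran between 3.08 and 5.96 with pseudocounts of 5 and 0.1. Cyp1a1 passed the filter of 1 TPM in 3 libraries through the CCl4 group alone.

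Cyp1a2, the constitutive hepatic enzyme that clears caffeine, had 364, 245 and 623 TPM in CCl4 livers, against 729.9, 849.8 and 821 TPM in vehicle livers. All CCl4 libraries were below all vehicle libraries, with library 3 nearest to them. Its log2 difference was -1.06 ± 0.36 (SE, n = 3 per group) in the deposited TPM, -0.45 under median-ratio scaling and, with the opposite sign, 0.64 without mitochondrial genes and copies. Against the median of all genes it was -0.48, -0.33 and -0.25 under these scalings. The 8 hepatocyte markers moved with Cyp1a2 in the deposited TPM, where all of them fell (8 of 8), against 51.1% of all genes tested. CCl4 library 3 had the highest sum of them in its group. Per 1000 TPM of the 7 markers other than Cyp2e1, a measure chosen after the values were seen, Cyp1a2 stood at 27.2, 15.4 and 19.7 TPM in CCl4 livers and 11.6, 12.04 and 12.03 TPM in vehicle livers. Thus the order of the groups for Cyp1a2 turned with the denominator, while that for Cyp1a1 did not, at 4.02, 2.01 and 1.36 TPM in CCl4 livers and 0.0107, 0.0055 and 0.0107 TPM in vehicle livers. The part of hepatocyte number in these values was not tested.

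**Figure D2:**
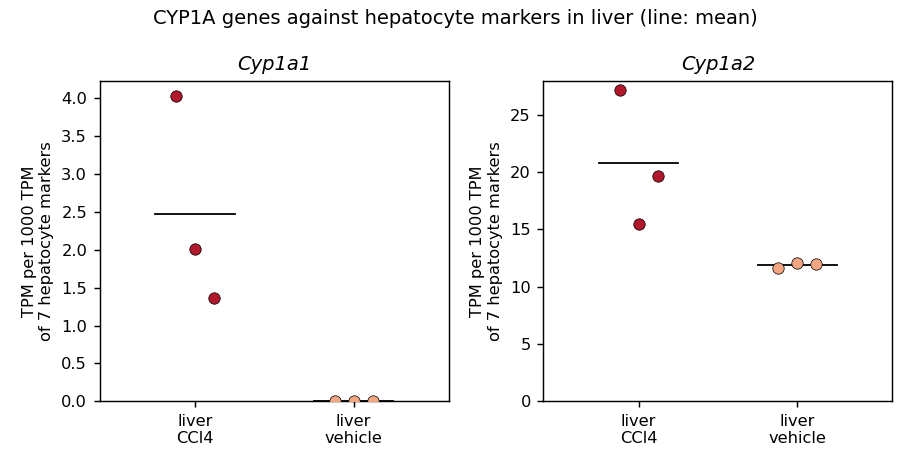
Cyp1a1 (left) and Cyp1a2 (right) in each liver library as TPM per 1000 TPM summed over 7 hepatocyte markers (Alb, Apoa1, Ttr, Apoc3, Cps1, Fgb and Hpx); points are libraries 1 to 3 and lines the mean of 3. Both genes were higher per marker TPM in every CCl4 liver, Cyp1a2 at 15.4 to 27.2 with CCl4 and 11.6 to 12.04 with vehicle.

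Ratios of 2 genes within a library do not depend on how that library is scaled, and they separate the CYP1A neighbours plainly. The ratio of Cyp1a1 to Cyp1a2 was 0.148, 0.130 and 0.0694 in CCl4 livers, against 0.000918, 0.000459 and 0.00089 in vehicle livers. Put as a share of both transcripts together, Cyp1a1 made up 12.9, 11.5 and 6.49% in CCl4 livers and 0.0917, 0.0459 and 0.0889% in vehicle livers. Cyp1a2 remained the more abundant of both in every liver library. The ratio of Cyp1a1 to Ahr was 11.99, 6.46 and 6.35 in CCl4 livers and 0.0816, 0.0666 and 0.105 in vehicle livers. Cyp1a2 to Ahr was 81.0, 49.5 and 91.5 in CCl4 livers and 88.9, 145.0 and 117.6 in vehicle livers, with overlap. The longest stretch of identical bases in the Cyp1a1 and Cyp1a2 transcripts is 137 bases, under the read length of 150 bases. The sources used here do not say how reads that fit both genes were shared out.

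**Figure D3:**
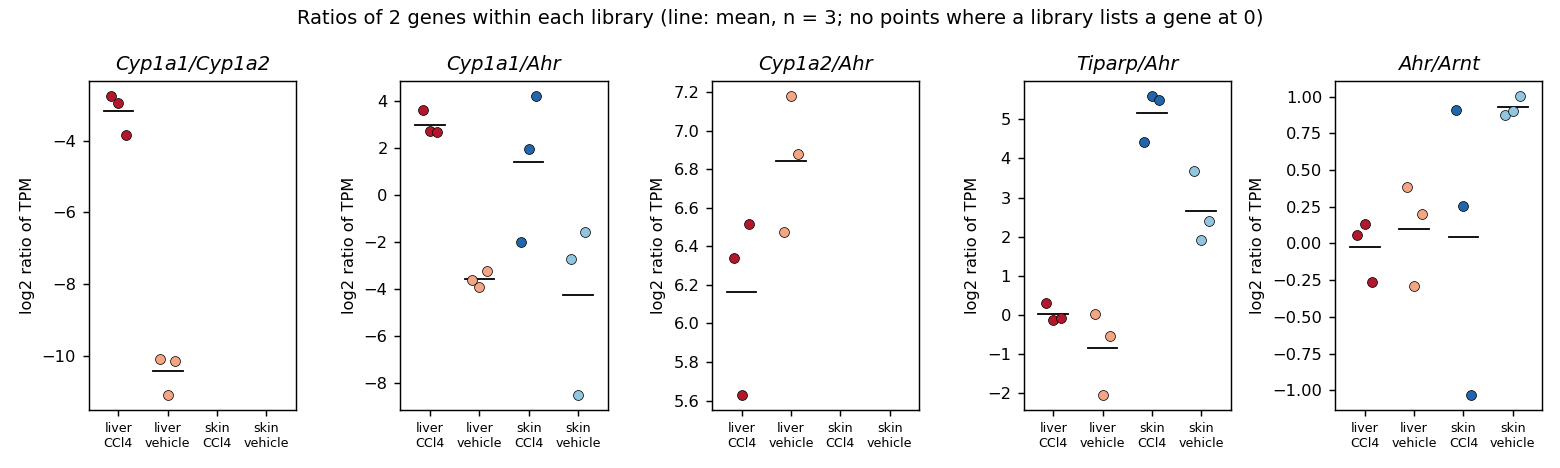
Within-library ratios of TPM for 5 pairs of genes, as log2 (vertical axes, each with its own range), by tissue and treatment; points are libraries 1 to 3 and lines the mean of 3, and groups with a gene listed at 0 have no points. Cyp1a1 over Cyp1a2 and Cyp1a1 over Ahr separated CCl4 from vehicle livers, while Ahr over Arnt did not.

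Cyp1b1, a CYP1 gene known mostly from cells other than hepatocytes, had 0.33, 0.66 and 0.08 TPM in CCl4 livers and was listed at 0 in all 3 vehicle livers. The groups did not overlap, but no library reached 1 TPM and no fold is given. Fibroblast and stellate markers moved the same way: all 6 of the 8 that passed the filter rose, though 5 of these 6 were below 1 TPM in every vehicle liver and so passed through the CCl4 group alone. The 8 markers summed to 146.6, 172 and 76.0 TPM in CCl4 livers and 6.62, 9.21 and 7.43 TPM in vehicle livers. CCl4 library 2 was highest and library 3 lowest for both Cyp1b1 and these markers. Endothelial markers (8 of 8) and the macrophage and monocyte markers that passed the filter (6 of 8) rose as well. These marker counts are from the deposited TPM, where 10.3% of all genes tested rose, against 67.8% without mitochondrial genes and copies. The part of these cells in the Cyp1b1 or Cyp1a1 values was not tested.

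Ahr had 4.49, 4.95 and 6.81 TPM in CCl4 livers, against 8.21, 5.86 and 6.98 TPM in vehicle livers, and the groups overlapped. Arnt, which dimerises with the AHR and with hypoxia-inducible factors, had 4.32, 4.52 and 8.16 TPM in CCl4 livers and 6.27, 7.17 and 6.08 TPM in vehicle livers, also with overlap. The Ahr difference was -0.33 ± 0.23 and the Arnt difference -0.21 ± 0.25 on the log2 scale (SE, n = 3 per group), but median-ratio scaling turned them to 0.20 and 0.31 and leaving out mitochondrial genes and copies to 1.24 and 1.35. Relative to the median of all genes, Ahr was 0.26, 0.31 and 0.34 higher under these scalings and Arnt 0.37, 0.42 and 0.46 higher. The receptor and its partner kept nearly equal levels: Ahr over Arnt was 1.04, 1.10 and 0.835 in CCl4 livers and 1.31, 0.817 and 1.15 in vehicle livers.

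Tiparp, a mono-ADP-ribosyltransferase, had 5.55, 4.50 and 6.43 TPM in CCl4 livers, against 8.36, 1.43 and 4.86 TPM in vehicle livers, whose spread enclosed the whole CCl4 group. Its difference was 0.34 ± 0.39 on the log2 scale (SE, n = 3 per group), and -0.20 ± 0.31 without vehicle library 2. Under median-ratio scaling it was 0.82 ± 0.45, and without mitochondrial genes and copies 1.95 ± 0.50. Relative to the median of all genes, Tiparp was 0.92, 0.93 and 1.05 higher under the deposited and these 2 scalings. Ahrr had 0.04, 0.04 and 0.02 TPM in CCl4 livers and 0, 0.02 and 0.01 TPM in vehicle livers, too low to pass the filter. So in the deposited TPM Cyp1a1 was far apart between the groups while Tiparp overlapped. Ahrr overlapped too, but at levels too near 0 to compare. Both repressor genes are also AHR targets in other settings. Overlap was read in the deposited TPM alone, and not under the 2 scalings where the Tiparp difference was larger.

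By mean level, CCl4 livers ran from Cyp1a2 (411 TPM) and Cyp1a1 (43.0 TPM) to Arnt, Tiparp and Ahr (5.67, 5.49 and 5.42 TPM, which overlapped), then Cyp1b1 and Ahrr. In vehicle livers Cyp1a2 (800.1 TPM) was followed by Ahr, Arnt and Tiparp (7.02, 6.51 and 4.88 TPM, which overlapped), then by Cyp1a1 (0.597 TPM). Cyp1a1 thus ranked above the receptor with CCl4 and below it with vehicle. Of the 5 genes that passed the filter, Cyp1a1 and Cyp1a2 did not overlap between the liver groups, as was true of 70.2% of all genes tested. Cyp1b1, which did not pass it and is outside that share, did not overlap either.

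**Figure D4:**
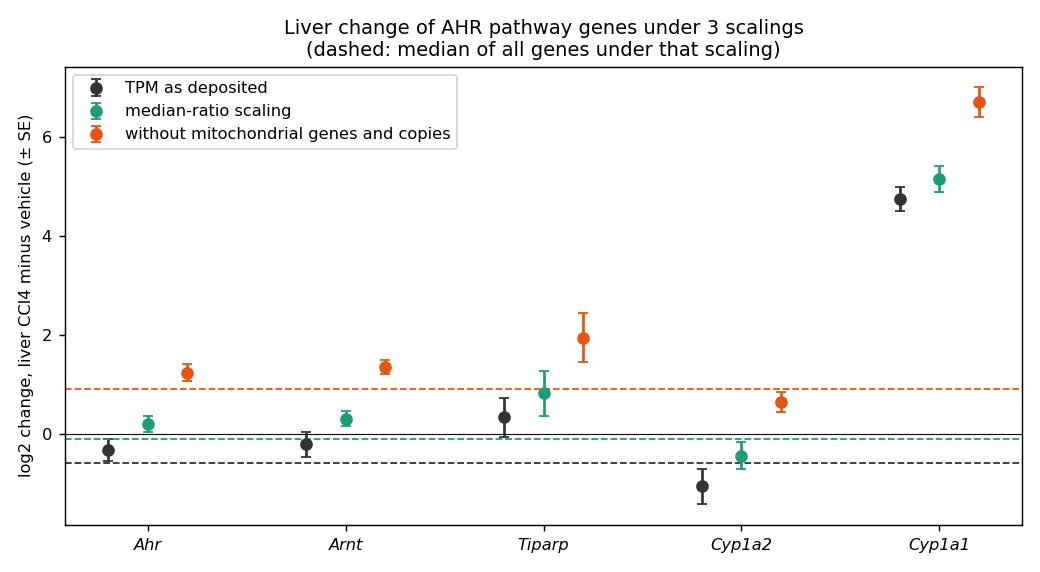
Log2 difference between CCl4 and vehicle livers for the 5 genes that passed the filter (vertical axis, points with SE, n = 3 per group) under 3 scalings, with the median of all genes under each scaling as a dashed line. Cyp1a1 stayed far above its dashed line under all 3, whereas Ahr, Arnt and Cyp1a2 lay on either side of 0 depending on the scaling.

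Genes that act with the receptor were read from 5 lists of 67 genes in all, also chosen with earlier results of these data known. Unlike the 7 genes above, they are given with limma's adjusted p over all 10385 genes tested in liver. Because of how the lists were chosen, these p-values are a description and not independent support. Of all 10385 genes, 10.3% rose and 51.1% fell, at a median of -0.59. Under median-ratio scaling the shares were 17.7% and 26.2%, and without mitochondrial genes and copies 67.8% and 3.57%. In the deposited TPM, Gsta1 and Cd36 among other AHR targets rose, and the 8 tryptophan to kynurenine enzymes that passed the filter and 11 of 12 electron donor and haem genes fell.

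Among 19 other AHR target genes, 13 passed the filter, of which 5 rose, 2 fell and 6 were not called, at a median of -0.03. Gsta1, a glutathione transferase, had 53.6, 36.4 and 139.6 TPM in CCl4 livers, against 8.58, 12.2 and 9.68 TPM in vehicle livers (log2 difference 2.58 ± 0.43, adjusted p = 0.000634). Cd36, a fatty acid receptor, had 32.0, 75.1 and 25.5 TPM in CCl4 livers, against 6.16, 6.55 and 6.42 TPM in vehicle livers (2.46 ± 0.36, adjusted p = 0.000343). Endothelial markers ran in the same library order as Cd36, at 195, 412 and 129.8 TPM summed over 8 genes in CCl4 livers and 23.4 to 26.6 TPM in vehicle livers, as did the 8 macrophage and monocyte markers, at 162, 204 and 67.8 TPM in CCl4 livers and 15.2 to 32.9 TPM in vehicle livers. Their part in the Cd36 values was not tested. The glucuronosyltransferases Ugt1a6b and Ugt1a6a fell (log2 differences -1.80 and -1.35), with means of 22.9 and 35.9 TPM in CCl4 livers and 76.5 and 85.2 TPM in vehicle livers. Slc7a5, Pmm1 and Fgf21 also rose. So the list did not move as 1 block: Nqo1, a classic AHR and NRF2 target, had 4.04, 2.58 and 10.5 TPM in CCl4 livers and 5.23, 4.72 and 5.23 TPM in vehicle livers and was not called (adjusted p = 0.936). Under median-ratio scaling 6 rose and 2 fell, and without mitochondrial genes and copies 11 of 15 rose, near the 67.8% of all genes, and none fell, with Ugt1a6a at 0.32. In 1 fit over all 12 libraries, which takes its spread from skin as well, Gsta1, Cd36, Ugt1a6a and Ugt1a6b were no longer called. Gsta1 shares a stretch of 253 identical bases with Gsta2, and Ugt1a6a one of 1350 bases with Ugt1a6b, so the split of reads within each pair is uncertain. Slc7a5 and Fgf21 passed the filter through the CCl4 group alone, so such counts lean towards genes that rose.

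Of 10 enzymes between tryptophan and kynurenine products, which make and remove AHR ligands, 8 passed the filter and all 8 fell, at a median of -2.44, while Ido1 and Il4i1 stayed below 1 TPM in every liver library. Tdo2, the hepatic enzyme that opens the tryptophan ring, had 62.7, 40.3 and 150.2 TPM in CCl4 livers, against 663, 817 and 731 TPM in vehicle livers (log2 difference -3.32 ± 0.43, adjusted p = 0.000185). The log2 differences of Afmid, the formamidase of the next step, of Haao and of Ido2 were -3.02, -2.49 and -2.45. Median-ratio scaling kept 7 of the 8 falls, and 5 of the 8 fell without mitochondrial genes and copies, with Tdo2 at -1.63 and Afmid at -1.46. In the deposited TPM the hepatocyte markers fell beside these enzymes (8 of 8), against 51.1% of all genes tested. The part of hepatocyte number was not tested.

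All 12 genes for P450 electron donors and haem synthesis passed the filter, and 11 fell, at a median of -1.42. The log2 differences were -1.96 for the cytochrome b5 gene Cyb5b, -1.83 for Urod, -1.76 for Cyb5a and -1.75 for Fech, which inserts iron into haem. Cyb5a had 323, 189 and 557 TPM in CCl4 livers and 1143, 1018 and 1130.3 TPM in vehicle livers, without overlap. Median-ratio scaling left 8 falls, and without mitochondrial genes and copies none fell and 2 rose, so this direction depends on the scaling. The 8 hepatocyte markers fell beside these genes in the deposited TPM (8 of 8, against 51.1% of all genes tested), and the part of hepatocyte number was not tested.

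Of 13 chaperones and coactivators of the receptor, 12 passed the filter, of which 1 rose and 3 fell, at a median of -0.44. The chaperone gene Hsp90aa1 rose to 69.7, 47.5 and 91.5 TPM in CCl4 livers, against 35.4, 41.5 and 35.9 TPM in vehicle livers (log2 difference 0.82 ± 0.31, adjusted p = 0.0388). Its call was lost with no filter on low TPM (adjusted p = 0.0619) and when single libraries were left out. The log2 difference was 0.80 without CCl4 library 1 (limma adjusted p = 0.0848). Without vehicle libraries 1, 2 or 3 it was 0.78, 0.90 and 0.79 (limma adjusted p = 0.145, 0.099 and 0.156). The coactivators Ncoa2, Ncoa1 and Ep300 fell in the deposited TPM (log2 differences -0.60, -0.59 and -0.57) but stood at 0.78, 0.51 and 0.73 without mitochondrial genes and copies, when 12 of 13 rose, against 67.8% of all genes, and under median-ratio scaling 3 of the 12 rose, against 17.7% of all genes, and none fell. Ncoa1 and Ep300 also lost their calls with no filter on low TPM (adjusted p = 0.0659 and 0.0874). Single libraries also ended these calls: vehicle libraries 1, 2 or 3 for Ncoa2 (-0.59, -0.58 and -0.61 without them), CCl4 library 2 or vehicle library 1 for Ncoa1 (-0.48 and -0.53), and CCl4 library 1 or vehicle libraries 1 or 2 for Ep300 (-0.58, -0.55 and -0.42). Among 13 other bHLH-PAS genes, 5 passed the filter and 3 fell, at a median of -0.69: Arntl, which encodes the clock factor BMAL1, Epas1 and Npas2, at -0.90, -0.83 and -0.69. Without mitochondrial genes and copies these 3 were at 0.62, 0.79 and 0.21, and under median-ratio scaling 1 of the 5 rose and none fell, so their direction depends on the scaling too, and Epas1 lost its call without vehicle libraries 2 or 3 (-0.77 and -0.85).

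**Figure D5:**
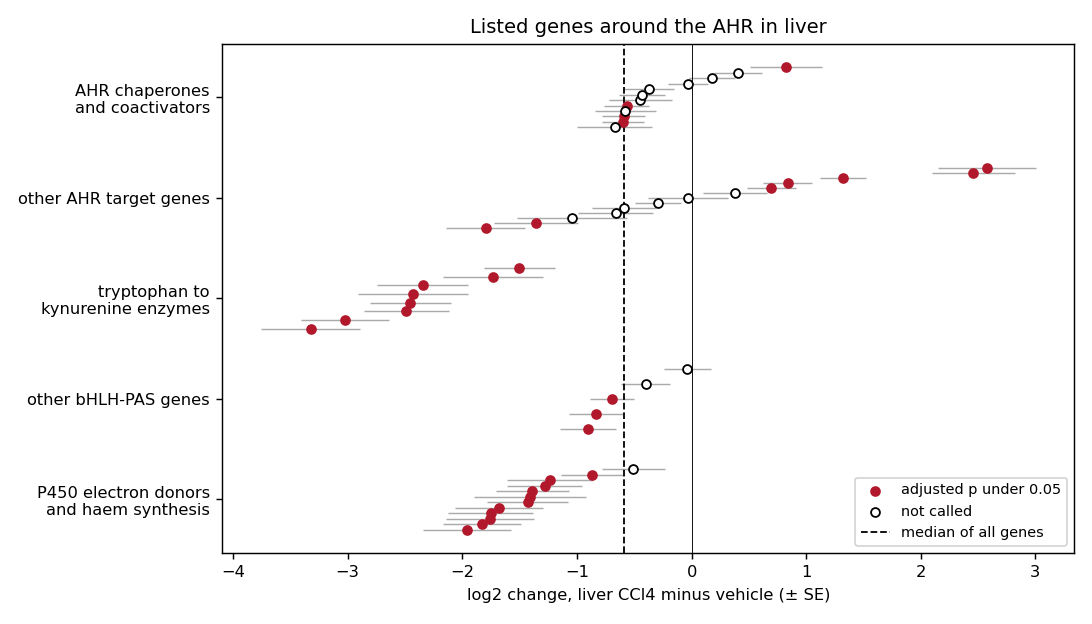
Log2 differences between CCl4 and vehicle livers (horizontal axis, deposited TPM, bars SE, n = 3 per group) for the listed genes that passed the filter, by list; filled points had an adjusted p under 0.05 and the dashed line is the median of all genes, -0.59. The tryptophan to kynurenine enzymes lie furthest to the left, with a median of -2.44, and Gsta1 and Cd36 furthest to the right.

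In the skin cells, Cyp1a1 was higher with CCl4 in every library than with vehicle in any, and it was the 1 member whose groups did not overlap, as were 5.28% of all genes tested. No member passed the test, which at SEs of 0.78 to 1.00 log2 units does not show that their levels were equal. limma called 0 of 13767 genes (0.0%), with 288 at an unadjusted p under 0.05, and the smallest adjusted p was 0.222. No gene of the 5 lists was called either.

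Cyp1a1 had 6.20, 25.5 and 45.5 TPM in CCl4 skin libraries, against 5.55, 0.21 and 2.65 TPM in vehicle skin libraries. CCl4 library 1 was only just above vehicle library 1. The log2 difference was 2.75 ± 0.92 (SE, n = 3 per group, limma adjusted p = 1), and 2.17 ± 0.96 without CCl4 library 3, which had the highest value and the lowest myeloid marker sums. Whether the effect on Cyp1a1 differed between liver and skin was not tested.

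Ahr had 24.6, 6.60 and 2.48 TPM in CCl4 skin libraries, against 36.9, 75.8 and 7.87 TPM in vehicle skin libraries. The groups overlapped, and the log2 difference was -1.75 ± 1.00 (SE, n = 3 per group, limma adjusted p = 1), or -1.08 ± 1.05 without CCl4 library 3. Arnt had 13.1, 5.53 and 5.07 TPM in CCl4 skin libraries and 20.1, 40.5 and 3.92 TPM in vehicle ones, with a log2 difference of -0.98 ± 0.88 (limma adjusted p = 1), or -0.76 ± 1.01 without CCl4 library 3. Vehicle libraries 2 and 3 moved the Arnt difference most, to -0.31 without library 2 and -1.85 without library 3. The Ahr difference was -1.06 and -2.62 without these libraries, and -2.52 without CCl4 library 1. Within the CCl4 group the library with the most Ahr had the least Cyp1a1, and the one with the least Ahr had the most Cyp1a1. Langerhans and dendritic markers summed over 8 genes ran in the same order as Ahr there, at 29220, 13080 and 181.7 TPM. In vehicle libraries they summed to 47390, 45300 and 42500 TPM. Cd74 and H2-Ab1 made up most of these sums, except in CCl4 library 3. Epcam alone broke the order in CCl4 libraries, at 86.8, 26.9 and 113.3 TPM. Cd207 had 74.8, 38.2 and 1.08 TPM in CCl4 libraries and 288.6, 114.0 and 13.6 TPM in vehicle ones. The part of these cells in the Ahr values was not tested.

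Tiparp was the most abundant of the 7 genes in every skin library, with 522, 319 and 111.9 TPM in CCl4 libraries and 475, 284 and 41.9 TPM in vehicle libraries. The groups overlapped, and the log2 difference was 0.57 ± 0.94 (SE, n = 3 per group, limma adjusted p = 1), or 1.19 ± 1.00 without CCl4 library 3 and -0.47 ± 0.72 without vehicle library 3. Tiparp over Ahr within a library was 21.2, 48.4 and 45.1 in CCl4 skin libraries and 12.9, 3.75 and 5.32 in vehicle ones, with no overlap. A two-sided exact permutation test gave p = 0.1 for that ratio, the smallest possible with 3 against 3, and 0.267 after adjustment over the 8 ratios tested. The ratio of Cyp1a1 to Ahr was 0.252, 3.86 and 18.4 in CCl4 skin libraries and 0.150, 0.00277 and 0.337 in vehicle ones, which overlapped (exact permutation p = 0.2, adjusted 0.4).

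Ahrr had 10.1, 0.97 and 2.58 TPM in CCl4 skin libraries and 7.26, 2.54 and 2.27 TPM in vehicle ones, with the library numbered 1 highest in both groups. Its log2 difference was -0.09 ± 0.78 (SE, n = 3 per group, limma adjusted p = 1), and 0.47, 0.03 and 0.33 without CCl4 library 2, CCl4 library 3 or vehicle library 1. Cyp1b1 had 2.24, 5.35 and 32.5 TPM in CCl4 skin libraries and 8.60, 8.20 and 1.40 TPM in vehicle ones. Its difference of 0.57 ± 0.98 (limma adjusted p = 1) rested on CCl4 library 3, without which it was -0.39 ± 0.85, and it was -0.09 without vehicle library 3. Cyp1a2 was listed at 0 in 4 of the 6 skin libraries and reached 0.02 TPM in CCl4 library 3 and 0.21 TPM in vehicle library 2. By mean level, Tiparp (318 TPM) led in CCl4 skin libraries and was separate from the next, while Cyp1a1, Cyp1b1, Ahr, Arnt and Ahrr (25.7 to 4.56 TPM) could not be ordered beyond their spread. In vehicle skin libraries no neighbours in the order, Tiparp, Ahr, Arnt, Cyp1b1, Ahrr, Cyp1a1 and Cyp1a2, were separate.

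Vehicle skin cells and vehicle livers held the genes at unlike levels. Tiparp was higher in the skin cells, and Ahr and Arnt did not pass the test. Ahrr and Cyp1b1 reached 1 TPM only in skin and Cyp1a2 only in liver. These 3 entered the comparison through 1 group alone, so their levels are given as a description without a test. The assay named in the titles, strain and material differ together between these groups and cannot be told apart. limma called 47.6% of 12864 genes higher and 13.7% lower in skin, at a median difference of 1.17, which median-ratio scaling brought to 0.05.

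Tiparp, at 475, 284 and 41.9 TPM in vehicle skin libraries and 8.36, 1.43 and 4.86 TPM in vehicle livers, was 5.14 ± 0.97 higher in skin (log2, SE, n = 3 per group, limma adjusted p = 0.0041), or 3.97 above the median of all genes. Ahrr had 7.26, 2.54 and 2.27 TPM in vehicle skin libraries and 0, 0.02 and 0.01 TPM in vehicle livers. Cyp1b1 had 8.60, 8.20 and 1.40 TPM in vehicle skin libraries and was listed at 0 in all vehicle livers. The same skin libraries held fibroblast transcripts, with 2171, 6898 and 1620 TPM summed over the 8 fibroblast and stellate markers, against 6.62 to 9.21 TPM in vehicle livers. They also held keratinocyte transcripts, with 1087 to 2763 TPM over 8 markers, against 5.93 to 7.67 TPM. Transcripts of T and natural killer cells were there too, with 2147, 691 and 4844 TPM over 8 markers, against 1.13, 1.33 and 0.56 TPM in vehicle livers. The part of these cells in the skin values was not tested. Cyp1a2 had 0, 0.21 and 0 TPM in vehicle skin libraries and 729.9, 849.8 and 821 TPM in vehicle livers. The libraries of both materials did not overlap for any of these 4 genes, as for 70.1% of all genes tested.

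Ahr, at 36.9, 75.8 and 7.87 TPM in vehicle skin libraries and 8.21, 5.86 and 6.98 TPM in vehicle livers, was not called (1.89 ± 0.77, limma adjusted p = 0.0706). Vehicle skin library 3 lay within the liver range, and without it the difference was 2.76 ± 0.34 (limma adjusted p = 0.000794). Arnt was not called either (1.12 ± 0.76, limma adjusted p = 0.242), it was called without that library (1.98, limma adjusted p = 0.00236), and it stood at -0.12 under median-ratio scaling. Ahr over Arnt, which no scaling moves, was 1.84, 1.87 and 2.01 in vehicle skin libraries and 1.31, 0.817 and 1.15 in vehicle livers, with no overlap (exact permutation p = 0.1, the smallest possible, adjusted 0.267). Tiparp over Ahr was 12.9, 3.75 and 5.32 in vehicle skin libraries and 1.02, 0.244 and 0.696 in vehicle livers (exact permutation p = 0.1, adjusted 0.267). Cyp1a1 had 5.55, 0.21 and 2.65 TPM in vehicle skin libraries and 0.67, 0.39 and 0.73 TPM in vehicle livers, overlapped, and failed the filter.

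The genes most like 4 of the members over all 12 libraries were sought by the root mean square difference of centred log2(TPM + 1) among 12804 genes, where 0 is an identical profile. For Cyp1a2 these were F2, Azgp1 and Plg (0.39, 0.40 and 0.45), which encode prothrombin, a zinc-binding plasma glycoprotein and plasminogen, all secreted by hepatocytes. For Ahr they were Aff1, Ids and Samd9l (0.29, 0.31 and 0.32), at means of 2.26, 1.37 and 3.12 TPM in CCl4 livers and 2.92, 1.36 and 3.59 TPM in vehicle livers. For Cyp1b1 they were Tnfrsf26, Lox, which cross-links collagen, and Meis3 (0.42, 0.43 and 0.45). Cyp1a1 had no close match: the nearest, Akap12, Tinagl1 and Slc43a3, were at 1.33, 1.33 and 1.41. Tinagl1 averaged 19.7 TPM in CCl4 livers and 2.34 TPM in vehicle livers, and 75.2 TPM in CCl4 skin libraries and 6.05 TPM in vehicle skin libraries. The 12 libraries of 2 materials share their tissue difference, so these are descriptions of profiles.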

How the data were processed

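RNA of liver and of CX3CR1+ cells from dorsal skin was sequenced after CCl4 or vehicle, in 3 libraries per group. The authors deposited 1 table of TPM for 57180 gene IDs. The submitters' processing notes name fastp, HISAT2, StringTie, RSEM and GRCm39, without versions or the role of each tool. Of the IDs, 51884 had a symbol and 5296 did not. TPM carry no sequencing depth and allow no counting interval. When some genes take more of a library, the TPM of its other genes go down.

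The tests used limma 3.58.1 in R 4.3.3 on log2(TPM + 1) (lmFit, eBayes with trend, two-sided), over genes with at least 1 TPM in at least 3 of the 6 libraries, separately for each comparison. A gene was called where its p, adjusted by Benjamini-Hochberg over all genes tested, was under 0.05. Because the labels do not tie libraries to animals or batches beyond the design text's count of 3 biological replicates, p-values measure only the spread between these libraries. Ratios were compared by exact permutation tests in Python 3.11.15 with SciPy 1.17.1.

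The 7 genes, the 5 gene lists and the marker lists were chosen with earlier results of these data known. From each list, up to 4 called genes with the largest changes and non-overlapping groups were named; others were named after their values were seen. The pairs of genes for the ratios, the hepatocyte marker ratio and the minimum match for a near copy of a mitochondrial gene (90% identity over 80% of the pseudogene's length) were set after the table was seen. Promoters came from RefSeq tables on GRCm38.p6, another build than that named for the table, and were joined by symbol. Alternatives were other pseudocounts, filters and scalings, 1 fit over all libraries, a replicate block, and each library left out.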

Additional observations from a re-analysis of the deposited data

How the results depend on the processing

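Deposited TPM gave 1073 rises and 5304 falls in liver (16.8% of calls higher), median-ratio scaling 1841 and 2720 (40.4%), and rescaling without mitochondrial genes and copies 8525 and 449 (95.0%). Of the 5 AHR pathway genes fitted in liver, Cyp1a1 and Tiparp kept their sign under these 3 scalings. The 6377 liver calls became 4084 with a filter at 5 TPM, 1736 in 1 fit over all 12 libraries, and 4454 to 7053 with 1 library left out. Skin gave 1 call in that 12-library fit. The 7883 calls between vehicle tissues ran from 4579 to 7408 with 1 library left out, and 77.7% were higher in skin, against 52.1% with median-ratio scaling. Ahr and Arnt in liver turned to 0.20 and 0.31 with median-ratio scaling. Without mitochondrial genes and copies, Ahr, Arnt and Cyp1a2 turned to 1.24, 1.35 and 0.64, and Arntl, Ep300, Epas1, Ncoa1, Ncoa2, Npas2 and Ugt1a6a to 0.62, 0.73, 0.79, 0.51, 0.78, 0.21 and 0.32. In that setting 7 of the 19 named list genes were called in the same direction, 4 in the opposite one and 8 not at all, and in the 12-library fit 11 were not called. The cause was not tested. In skin, Ahrr was 0.0093 with a pseudocount of 5 and -0.78 to 0.47 with 1 library left out, Tiparp -0.47 to 1.27 and Cyp1b1 -0.39 to 1.29. Leaving out both skin libraries numbered 1, chosen after seeing the data since they list more genes above 0, gave 0 skin calls and a Cyp1a1 difference of 4.06. Arnt between vehicle tissues was -0.12 with median-ratio scaling. Cyp1a1 in liver gave no value without a CCl4 library, since only 2 libraries then reached 1 TPM.

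Libraries that share a number were not taken as paired: their deviations correlated at -0.038, 0.08 and 0.068 in liver and 0.587, 0.092 and 0.35 in skin, and not every library correlated best with its own number. These numbers are those of the sample titles. The library names share only the numbers 1 and 2 in liver, for the same pairs, and 1 and 4 in skin, where 4 joins CCl4 library 3 to vehicle library 2, whose deviations correlated at -0.185. With a replicate block, liver gave 6493 calls and skin 0, and Hsp90aa1 lost its call. Depth is unknown, so levels near 0 TPM cannot be told from absence.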

Other observations

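Listed genes whose groups did not overlap in the skin cells were not called by limma. They are given as values chosen after they were seen, without a fit that leaves out CCl4 library 3. Serpinb2, which encodes a plasminogen activator inhibitor and is listed among AHR targets, had 615, 568 and 721 TPM in CCl4 skin libraries and 392, 357 and 56.4 TPM in vehicle ones, with no overlap (limma adjusted p = 1). Gsta2 did not overlap either, so that 2 of the 14 other AHR targets tested were apart, against 5.28% of all genes. The kynurenine enzymes Kmo and Haao were lower in all CCl4 skin libraries, Kmo at 1.20, 1.38 and 0 TPM with CCl4 and 3.32, 10.3 and 7.68 TPM with vehicle, and Haao at 2.62, 0.72 and 0.55 TPM with CCl4 and 5.79, 5.11 and 7.87 TPM with vehicle (limma adjusted p = 1 for both). These were 2 of the 7 enzymes of their list tested in skin, against 5.28% of all genes without overlap. Kyat1 and Kyat3, at log2 differences of 0.80 and 1.21, went the other way from the list median of -1.75. CCl4 skin library 3, highest of its group for Cyp1a1 and Cyp1b1, also had 485 TPM of Nqo1 and 447 TPM of Gsta1, against at most 24.3 TPM of each in the other 5 skin libraries.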
